A study of Mus musculus with 6 samples.

Results

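Islets of Ucn3 null mice and of wild-type mice were compared for the transcripts of cyclic nucleotide phosphodiesterases, the enzymes that break down cAMP and cGMP. The set holds 10 genes (Pde1c, Pde3a, Pde3b, Pde4a, Pde4b, Pde4d, Pde7b, Pde8a, Pde8b and Pde10a) of 21813 gene symbols in the deposited table, chosen by name. For each symbol the RefSeq transcript with the highest mean over the libraries was used. RNA came from 3 Ucn3 null and 3 wild-type littermate males, all adult and 3 months old, with 1 library per animal and n = 3 per genotype. The labels give no allele design for the null line and no treatment, and they call the cell type mixed. Islets therefore stand here as whole tissue, although the extraction protocol also mentions a cell sort. The unit is RPKM, read density scaled for transcript length and library depth, so levels of different genes are compared per length.

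Ucn3 encodes urocortin 3, a peptide that beta cells release together with insulin and that acts on somatostatin-producing delta cells. Its receptor Crhr2 couples to adenylyl cyclase, which makes cAMP, and somatostatin in turn lowers cAMP in beta and alpha cells. Phosphodiesterases end the cAMP signal, and in beta cells cAMP amplifies glucose-stimulated insulin secretion. The families differ in what they cut and in what controls them. The Pde4, Pde7 and Pde8 enzymes are specific for cAMP. The Pde3 enzymes cut cAMP and are inhibited by cGMP. Pde1c is switched on by calcium and calmodulin, and both Pde1c and Pde10a cut either nucleotide.

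Ucn3 itself was measured first as a check of the labels. It stood at 1.61, 1.63 and 1.80 RPKM in null islets and at 136, 157 and 155 RPKM in wild-type islets, so every library matched its label. The depth estimated from the steps between low values was 42520000 to 51890000 reads per library. Beta cell markers summed to 230500 to 255100 RPKM in null and 247300 to 285900 RPKM in wild-type islets, most of it from Ins2. Delta cell markers (7 genes) summed to 743 to 1147 RPKM in null and 1806 to 2468 RPKM in wild-type islets, without overlap and most of it from Sst. Of 6 tested delta cell markers 5 had a negative difference. Null libraries lay wholly below wild type in 4 of the 6 and wholly above in 1. Over all tested genes 13.2% lay wholly below and 1.9% wholly above. Markers of acinar cells, the exocrine tissue around islets, summed to 4718 to 22470 RPKM in null and 528 to 6135 RPKM in wild-type islets over 23 genes. Ductal markers summed to 260.7 to 344.7 RPKM in null and 301.6 to 403.3 RPKM in wild-type islets over 11 genes. None of the markers with a row was at 0 in all libraries. The part of these cell types in the phosphodiesterase values was not tested, and fewer cells of a type cannot be told apart from less RNA per cell.

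The expression of several phosphodiesterase genes is known to be raised by cAMP itself, through the factor CREB. CREB binds the cAMP response element, TGACGTCA, or its half-site TGACG. RefSeq start windows of build GRCm38.p6, from 250 bases before to 50 bases after an annotated start, were at hand for 8 members with 20 windows, of which several of Pde8b overlap. None of the 20 windows held the full element on either strand, against 1.79% of 32851 windows of all genes. The half-site, which is part of the full element, was present in 4 of the 20 windows, a share near the 20.8% of all windows. It began at position -50 of a Pde4a window, at -34 of a Pde4b window, at -84 of the Pde8a window and at 39 after the start of a Pde8b window. The 250 upstream bases are printed for Pde10a, the member with the largest difference between genotypes. They are also printed for the Pde8a window and for the only one of several Pde4b windows that held the half-site. Capitals mark the half-site on either strand, and all sequences run 5′ to 3′ in the direction of transcription. Which start of Pde10a or of Pde4b is used in these islets was not tested.
Pde10a, first start, chr17:8801495-8801744, plus strand: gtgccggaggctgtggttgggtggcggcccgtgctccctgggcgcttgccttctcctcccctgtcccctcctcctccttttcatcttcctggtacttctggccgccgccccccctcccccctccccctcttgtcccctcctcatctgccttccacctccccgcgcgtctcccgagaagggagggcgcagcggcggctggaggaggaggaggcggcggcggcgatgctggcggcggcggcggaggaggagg
Pde10a, downstream start, chr17:8849735-8849984, plus strand: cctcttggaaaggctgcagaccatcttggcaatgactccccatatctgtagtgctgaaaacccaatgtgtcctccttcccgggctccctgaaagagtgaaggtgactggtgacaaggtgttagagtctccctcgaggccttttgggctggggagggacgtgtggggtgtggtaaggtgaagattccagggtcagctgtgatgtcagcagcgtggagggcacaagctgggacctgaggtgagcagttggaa
Pde4b, chr4:102421305-102421554, plus strand: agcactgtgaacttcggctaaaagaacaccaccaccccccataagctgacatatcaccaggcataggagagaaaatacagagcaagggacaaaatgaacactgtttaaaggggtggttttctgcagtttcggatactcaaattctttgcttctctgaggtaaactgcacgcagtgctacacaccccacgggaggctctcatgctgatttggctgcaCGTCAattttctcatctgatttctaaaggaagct
Pde8a, chr7:81213015-81213264, plus strand: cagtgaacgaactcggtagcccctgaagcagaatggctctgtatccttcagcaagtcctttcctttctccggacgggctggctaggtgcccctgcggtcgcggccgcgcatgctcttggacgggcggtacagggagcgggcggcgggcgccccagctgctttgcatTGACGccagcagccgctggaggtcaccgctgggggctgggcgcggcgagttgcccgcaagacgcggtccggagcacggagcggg
Neither Pde10a window held the half-site, and a missing match says only that these letters are not in these windows. The first Pde10a window was rich in G and C, at 71.3% of its 300 bases with 23 CpG dinucleotides, while the downstream one had 56.7% and 5.

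Pde4d, Pde3b and Pde8a had the highest levels of the 10 members in these islets. Together these 3 genes made up 68.8% to 74.3% of the summed RPKM of the 10 members in each library. Pde4d, a cAMP-specific enzyme, led the members at 22.8 ± 1.63 RPKM (SD, n = 6) and ranked first of the 10 in 6 of 6 libraries. Outside the set, Pde5a averaged 20.6 RPKM. Pde3b, the cGMP-inhibited enzyme known from beta cells and fat cells, averaged 16.6 ± 0.60 RPKM, and the cAMP-specific Pde8a averaged 15.3 ± 1.33 RPKM (SD, n = 6 each). The ranges of Pde3b and Pde8a overlapped, and Pde3b was higher in 5 of 6 libraries. Pde4b at 7.83 ± 1.33 RPKM and Pde1c at 6.63 ± 0.55 RPKM (SD, n = 6 each) formed the next level and also overlapped, with Pde4b higher in 5 of 6 libraries. Pde10a at 2.48 ± 0.77 RPKM and Pde7b at 1.72 ± 0.16 RPKM (SD, n = 6 each) followed. Their ranges did not overlap but nearly met, with Pde10a at 1.866 RPKM or more and Pde7b at 1.853 RPKM or less. The means of Pde10a and Pde7b were 1.92 and 1.80 RPKM in wild-type islets, against 3.04 and 1.64 RPKM in null islets. At the low end lay Pde4a at 1.04 ± 0.16 RPKM, Pde8b at 0.96 ± 0.10 RPKM and Pde3a at 0.72 ± 0.08 RPKM (SD, n = 6 each). Pde4a and Pde8b overlapped in range, while Pde3a was the lowest member in 6 of 6 libraries. Within the Pde3 and Pde8 families 1 gene thus carried most of the transcript density, Pde3b over Pde3a and Pde8a over Pde8b.

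**Figure D1:**
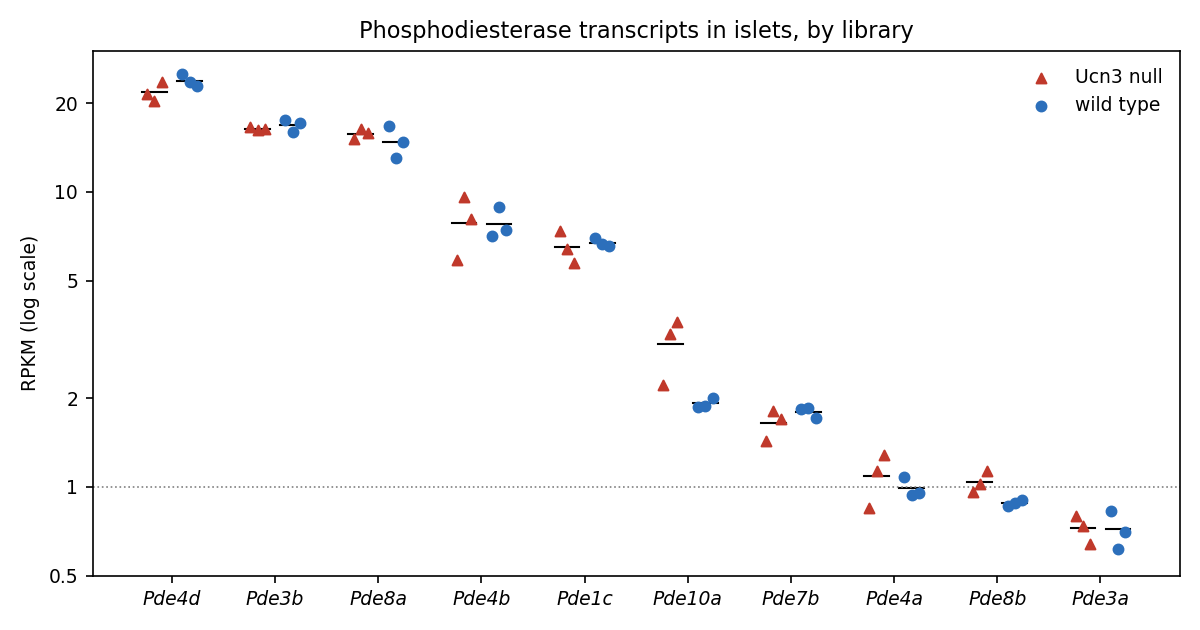
RPKM of the 10 phosphodiesterase genes on a log axis, with Ucn3 null libraries as triangles left of wild-type libraries as circles, and a short line at each group mean (n = 3 each). The dotted line is 1 RPKM, the mean a gene had to reach to be tested. Pde10a and Pde8b are the members whose null libraries all lie above the wild-type libraries.

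No member passed the test between genotypes. Values were compared as log2(RPKM + 1) with limma over 12652 genes averaging at least 1 RPKM, and the threshold was an adjusted p (Benjamini-Hochberg) of 0.05. Of the 10 members 8 reached that level, and 0 of 8 were called higher and 0 of 8 lower. Over all genes 0 were called higher (0%) and 2 lower (0.0158%), Ucn3 and the pseudogene Marcksl1-ps4. At an unadjusted p under 0.05 limma counted 1 of the 8 members, Pde10a, against 185 genes higher (1.46%) and 999 lower (7.9%). The median log2 difference of the 8 tested members was -0.02, beside -0.03 over all tested genes. The summed RPKM of the 10 members was 72.8, 77.0 and 77.9 in null islets and 79.8, 74.2 and 75.0 in wild-type islets, with overlapping groups.

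Pde10a, a dual-specificity enzyme best known from the striatum of the brain, had the largest difference of the 8 tested members. It held 2.21, 3.30 and 3.62 RPKM in null replicates 1 to 3, against 1.87, 1.89 and 2.01 RPKM in wild-type replicates 1 to 3. Every null library lay above every wild-type library, and null replicate 1 stood close to the wild-type range. The mean was 3.04 ± 0.74 RPKM in null and 1.92 ± 0.08 RPKM in wild-type islets (SD, n = 3 each), a ratio of 1.59. The log2 difference was 0.45 (SE 0.14, 95% interval 0.14 to 0.77, limma adjusted p = 0.49), so the difference did not pass over all genes. Of all tested genes 1.9% had null libraries wholly above wild type, and 0.775% had a null to wild type ratio at least as large as that of Pde10a. Behind these values stand about 616 reads in wild-type replicate 1 and about 1308 reads in null replicate 3, the lowest and highest of the 6 libraries. At about 616 reads counting error alone is 4.03% of the value, near the 3.91% by which the wild-type libraries varied, while the null libraries varied by 24.2%.

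The order of Pde10a among null libraries was not particular to cell type markers. The factors of median-ratio scaling, taken over all tested genes, had the same order, at 0.940, 0.967 and 1.03 in null replicates 1 to 3. In wild-type replicates 1 to 3 these factors were 1.02, 0.990 and 1.03, which is not the order of Pde10a there. In null replicates 1 to 3 the G protein genes acting on adenylyl cyclase summed to 572.8, 645.9 and 683.5 RPKM. The CREB factors and coactivators summed to 51.5, 54.53 and 57.15 RPKM there. Ductal markers ran in reverse, at 344.7, 274.4 and 260.7 RPKM, and beta cell markers had another order, at 230500, 255100 and 247400 RPKM. Acinar markers summed to 22470, 13240 and 4718 RPKM in null replicates 1 to 3, the reverse of the order of Pde10a, and to 6135, 528 and 2430 RPKM in wild-type replicates 1 to 3. Alpha cell markers summed to 6723, 8527 and 10970 RPKM in null and to 9194, 8658 and 9650 RPKM in wild-type islets, and Gcg, which encodes glucagon, led them. The null libraries thus had the same order for Pde10a and the alpha cell list, and the wild-type libraries did not. Null replicate 2 was below all wild-type libraries in that list and above them all in Pde10a. Delta cell markers summed to 743, 925 and 1147 RPKM in null and to 1806, 2256 and 2468 RPKM in wild-type islets. They had the order of Pde10a within the null libraries and also within the wild-type libraries. Between genotypes, delta cell markers were lower and Pde10a was higher in null islets. The part of these cell types in the Pde10a values was not tested beyond the fit with acinar markers as a covariate, in which the log2 difference of Pde10a was 0.62 (SE 0.19, limma adjusted p = 0.98). Without null replicate 1 it was 0.61 (SE 0.08, limma adjusted p = 0.18), and over all alternative settings the adjusted p ran from 0.18 to 0.98.

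**Figure D2:**
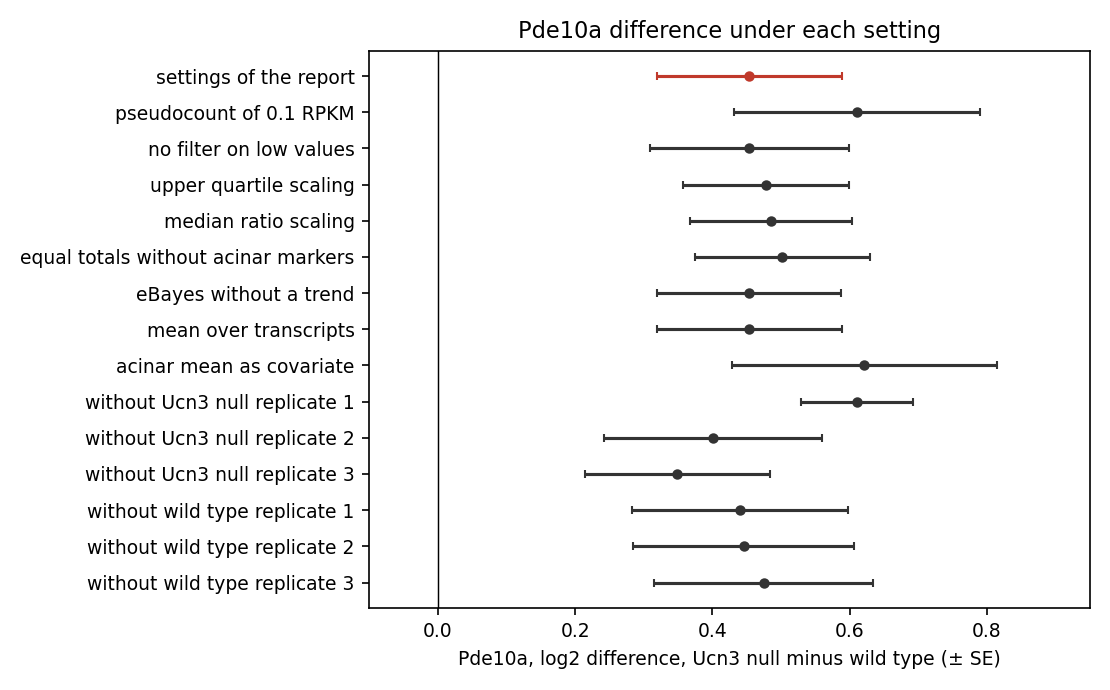
Log2 difference of Pde10a, null minus wild type, with its standard error under the settings of the report (red, at the top) and under 14 alternatives. All values are positive, between 0.35 and 0.62, and none passed the adjusted threshold.

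Pde8b, the second cAMP-specific Pde8 enzyme, was likewise higher in every null library but averaged under 1 RPKM and was not tested with the other members. It held 0.96, 1.02 and 1.14 RPKM in null islets, against 0.86, 0.88 and 0.90 RPKM in wild-type islets. The groups did not overlap, and the ratio of means was 1.18. Of the tested genes, which do not include Pde8b, 1.9% had null libraries wholly above wild type. In a limma fit without the filter the log2 difference was 0.12 (SE 0.06, 95% interval -0.03 to 0.26, adjusted p = 0.67). These values rest on about 148 to 213 reads, where counting error alone is up to 8.22%. Pde8b lies on chromosome 13, as do Pde4d and Ucn3 itself, but the distances between these genes were not examined. Both deposited transcripts of Pde8b gave nearly the same values. Its paralogue Pde8a stood at 15.2, 16.3 and 15.8 RPKM in null and at 16.7, 13.0 and 14.7 RPKM in wild-type islets. The null libraries of Pde8a fell inside the wild-type range, and its log2 difference was 0.09 (95% interval -0.13 to 0.31, limma adjusted p = 0.81). It was 0.18 without wild-type replicate 1, 0.0071 without wild-type replicate 2 and 0.16 with acinar markers left out before scaling, and it turned to -0.068 with the acinar covariate.

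The Pde4 genes encode the cAMP-specific enzymes that rolipram inhibits. Pde4d held 21.5, 20.4 and 23.5 RPKM in null islets, against 25.0, 23.5 and 22.9 RPKM in wild-type islets. The groups overlapped through null replicate 3, and the log2 difference was -0.12 (SE 0.08, 95% interval -0.30 to 0.06, limma adjusted p = 0.66). It was -0.077 without null replicate 2, -0.076 with median-ratio scaling and -0.054 with acinar markers left out before scaling. Pde4b varied more between animals of 1 genotype than between genotypes, with 5.87, 9.60 and 8.11 RPKM in null and 7.06, 8.87 and 7.45 RPKM in wild-type islets. Null replicates 1 and 2 were the lowest and the highest of the 6 libraries, and the log2 difference was -0.01 (95% interval -0.38 to 0.36, limma adjusted p = 0.99). Its sign turned with upper-quartile or median-ratio scaling, with acinar markers left out before scaling and with the acinar covariate. It also turned without null replicate 1 (0.17) or wild-type replicate 2 (0.080). Pde4a held 0.85, 1.13 and 1.29 RPKM in null and 1.08, 0.94 and 0.95 RPKM in wild-type islets. These groups overlapped as well, with a log2 difference of 0.07 (95% interval -0.18 to 0.32, limma adjusted p = 0.89).

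Of the cGMP-inhibited pair, Pde3b was the steadiest member among null animals, where it varied by 0.96%. That spread was under its counting error of 1.43% at its lowest read number. Among wild-type animals Pde3b varied by 5.01%, and several other members varied less. It held 16.6, 16.2 and 16.3 RPKM in null islets, against 17.6, 15.9 and 17.1 RPKM in wild-type islets. The null libraries lay within the wild-type range, and the log2 difference was -0.04 (SE 0.06, 95% interval -0.19 to 0.11, limma adjusted p = 0.90), turning positive with median-ratio scaling or with acinar markers left out before scaling. Pde3a, which is best known from heart muscle, platelets and oocytes, held 0.80, 0.74 and 0.64 RPKM in null and 0.83, 0.62 and 0.71 RPKM in wild-type islets. It stayed under the 1 RPKM filter, and without the filter the limma log2 difference was 0.0059 (95% interval -0.16 to 0.17, adjusted p = 0.996).

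Pde1c links calcium to cyclic nucleotide breakdown. It held 7.37, 6.42 and 5.76 RPKM in null islets, against 6.99, 6.67 and 6.54 RPKM in wild-type islets. Null replicate 1 was the highest and null replicate 3 the lowest of all libraries, and the log2 difference was -0.05 (95% interval -0.25 to 0.16, limma adjusted p = 0.91). The sign turned without null replicate 3 (0.027) and with acinar markers left out before scaling. Pde7b, a cAMP-specific enzyme that rolipram does not block, held 1.43, 1.81 and 1.69 RPKM in null and 1.83, 1.85 and 1.71 RPKM in wild-type islets. Its groups overlapped, with a log2 difference of -0.08 (95% interval -0.29 to 0.12, limma adjusted p = 0.81). Without null replicate 1 it was -0.024 and without null replicate 2 it was -0.13.

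**Figure D3:**
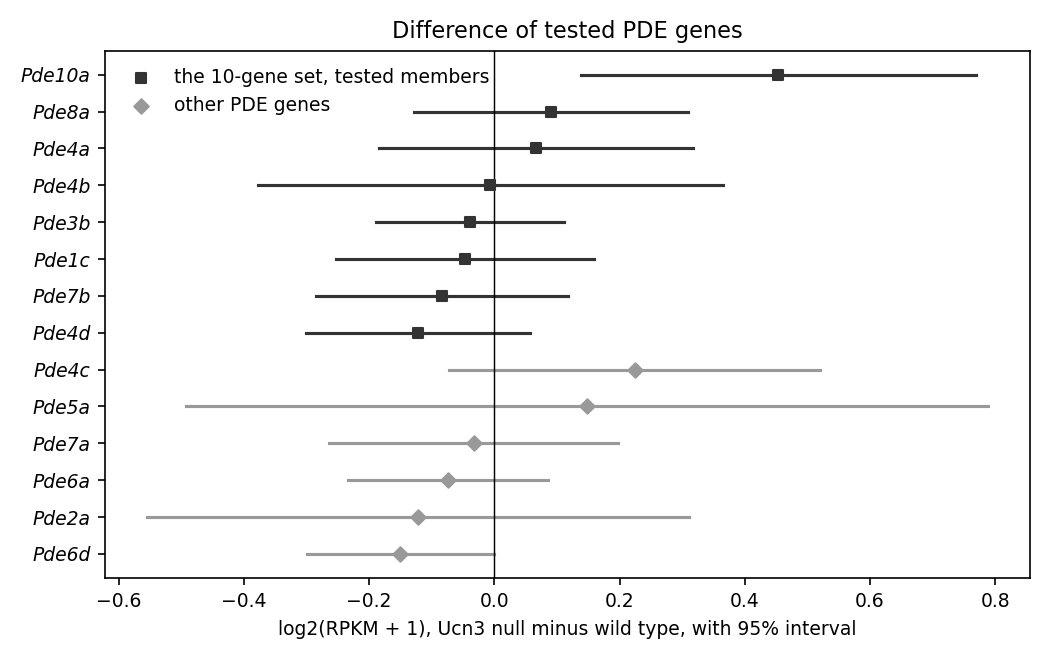
Log2(RPKM + 1) difference, null minus wild type, with its 95% interval for the 8 tested members (dark squares) and 6 other phosphodiesterase genes (grey diamonds). Pde10a is at 0.45, and the other 7 tested members lie between -0.12 and 0.09 with intervals that span 0.

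Several members have more than 1 deposited transcript, and transcripts of a gene share reads, so their values are not independent measurements. The 8 Pde1c transcripts fell into 3 levels. NM_001159953 stood at 6.52 ± 0.81 RPKM in null and 6.74 ± 0.23 RPKM in wild-type islets (SD, n = 3 each). NM_001159956, NM_001159955 and NM_011054 had 59.9% to 74.0% of its value in single libraries, and the remaining 4 transcripts 25.9% to 32.0%. All 8 Pde1c transcripts had null means slightly below the wild-type means, at ratios of 0.940 to 0.968, with overlapping groups in each, although the difference of NM_001159953 turned positive with acinar markers left out before scaling. Of 5 Pde4b transcripts, NM_001177982 was the highest, and NM_001177981, NM_001177980 and NM_019840 had 83.6% to 92.1% of its value in single libraries. The exception, NM_001177983, held only 0.35, 0.32 and 0.38 RPKM in null islets, against 0.39, 0.54 and 0.47 RPKM in wild-type islets. Its groups did not overlap, with a null to wild type ratio of 0.744, and 13.2% of tested genes had null libraries wholly below wild type. The values rest on about 21 to 36 reads per library, and this transcript was not tested and was picked out after its values were seen.

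**Figure D4:**
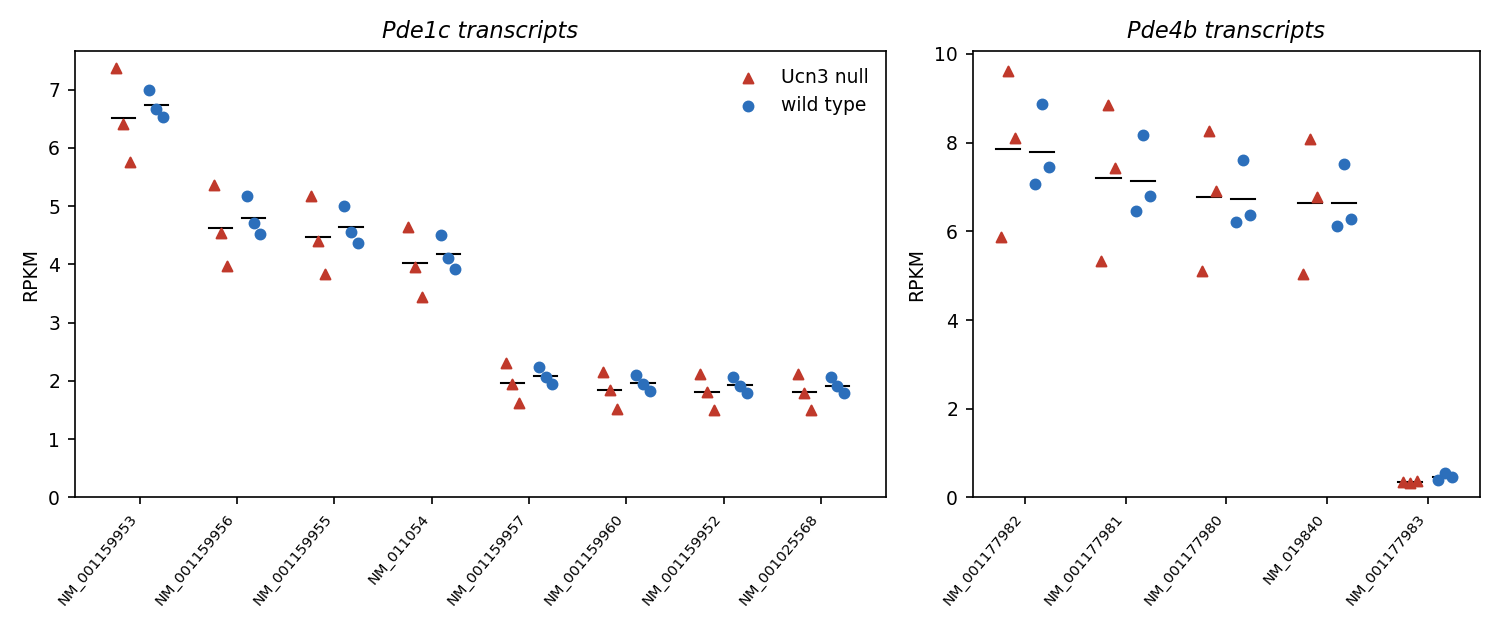
RPKM of each deposited transcript of Pde1c (left) and Pde4b (right), with Ucn3 null libraries as triangles left of wild-type libraries as circles and a short line at each group mean (n = 3 each). Pde1c transcripts form 3 levels, and NM_001177983 of Pde4b lies under 1 RPKM in all libraries while the other 4 Pde4b transcripts lie above 5 RPKM.

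The 14 other cyclic nucleotide phosphodiesterase genes in the table had 6 members above the filter, with 0 called in either direction and a median log2 difference of -0.05. Pde5a, the cGMP-specific enzyme that sildenafil inhibits, was as abundant as the leading members. It held 27.0, 19.3 and 17.9 RPKM in null and 27.3, 12.1 and 20.2 RPKM in wild-type islets, so animals of 1 genotype differed more than the genotypes did (log2 difference 0.15, 95% interval -0.49 to 0.79, limma adjusted p = 0.91). Pde6d, whose product is a carrier of prenylated proteins rather than a catalytic subunit, held 10.5, 10.5 and 11.5 RPKM in null and 12.1, 11.97 and 12.3 RPKM in wild-type islets. Null libraries all lay below wild type, a pattern shared by 13.2% of tested genes, and the limma adjusted p was 0.53. Pde4c, the fourth Pde4 gene, stood at 4.52 ± 0.61 RPKM in null and 3.74 ± 0.67 RPKM in wild-type islets (SD, n = 3 each; limma adjusted p = 0.63). Pde6a stood at 4.07 ± 0.16 and Pde7a at 1.68 ± 0.18 RPKM in null islets, against 4.34 ± 0.26 and 1.75 ± 0.25 RPKM in wild-type islets (SD, n = 3 each), and both overlapped between groups. Pde2a, the cGMP-stimulated enzyme, stood at 1.09 ± 0.16 RPKM in null and 1.33 ± 0.64 RPKM in wild-type islets (SD, n = 3 each), with wild-type replicate 1 at 2.04 RPKM. The other 8 genes (Pde1a, Pde1b, Pde6b, Pde6c, Pde6g, Pde6h, Pde9a and Pde11a) averaged under 1 RPKM, with Pde1b the highest of them at 0.77 ± 0.10 RPKM in null and 0.82 ± 0.16 RPKM in wild-type islets (SD, n = 3 each).

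The genes that make, carry and read the cAMP signal had no member past the threshold in either direction. Of 10 adenylyl cyclase genes 4 were tested, with 2 positive and 2 negative differences and a median of 0.0034. Adcy9 stood at 11.0 ± 0.06 RPKM in null and 10.4 ± 1.09 RPKM in wild-type islets (SD, n = 3 each). All 7 G protein genes were tested, 2 positive and 5 negative with a median of -0.03. Gnal, which encodes a stimulatory alpha subunit, held 4.11, 3.83 and 4.19 RPKM in null and 4.65, 4.53 and 4.64 RPKM in wild-type islets (limma adjusted p = 0.53). Null libraries of Gnal, 1 of the 7 genes, lay wholly below wild type, as did those of 13.2% of all tested genes. Of the cAMP effectors, which are subunits of protein kinase A, exchange factors and cyclic nucleotide-gated channels, 11 of 13 were tested, 6 positive and 5 negative. Prkar1a, a regulatory subunit of protein kinase A, stood at 82.0 ± 3.56 RPKM in null and 88.3 ± 1.52 RPKM in wild-type islets (SD, n = 3 each; limma adjusted p = 0.69). Of the 11 tested effectors it was the 1 gene with null libraries wholly below wild type, a share near the same 13.2%. Among 11 tested protein kinase A inhibitors and anchoring proteins the inhibitor Pkia held 4.57, 4.63 and 5.55 RPKM in null and 5.76, 5.998 and 5.53 RPKM in wild-type islets (limma adjusted p = 0.53).

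CREB, its coactivators and genes that cAMP induces likewise gave 0 calls. The 8 CREB factors and coactivators had 5 positive and 3 negative differences with a median of 0.08. Crem, a CREB relative that cAMP also induces, held 8.51, 9.72 and 8.90 RPKM in null and 10.1, 9.44 and 10.3 RPKM in wild-type islets (log2 difference -0.13, limma adjusted p = 0.63). The 9 tested cAMP-induced genes had a median of 0.15 with 7 positive, but their spread among wild-type animals was wide. Their summed level was 684, 617 and 805 RPKM in null islets and 1002, 716 and 334 RPKM in wild-type islets. Wild-type replicates 1 and 3 were the highest and the lowest of the 6 libraries. Irs2, an insulin receptor substrate induced by cAMP in beta cells, held 21.7, 13.4 and 21.5 RPKM in null and 38.3, 10.3 and 4.46 RPKM in wild-type islets (SE of the log2 difference 0.63, limma adjusted p = 0.84).

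**Figure D5:**
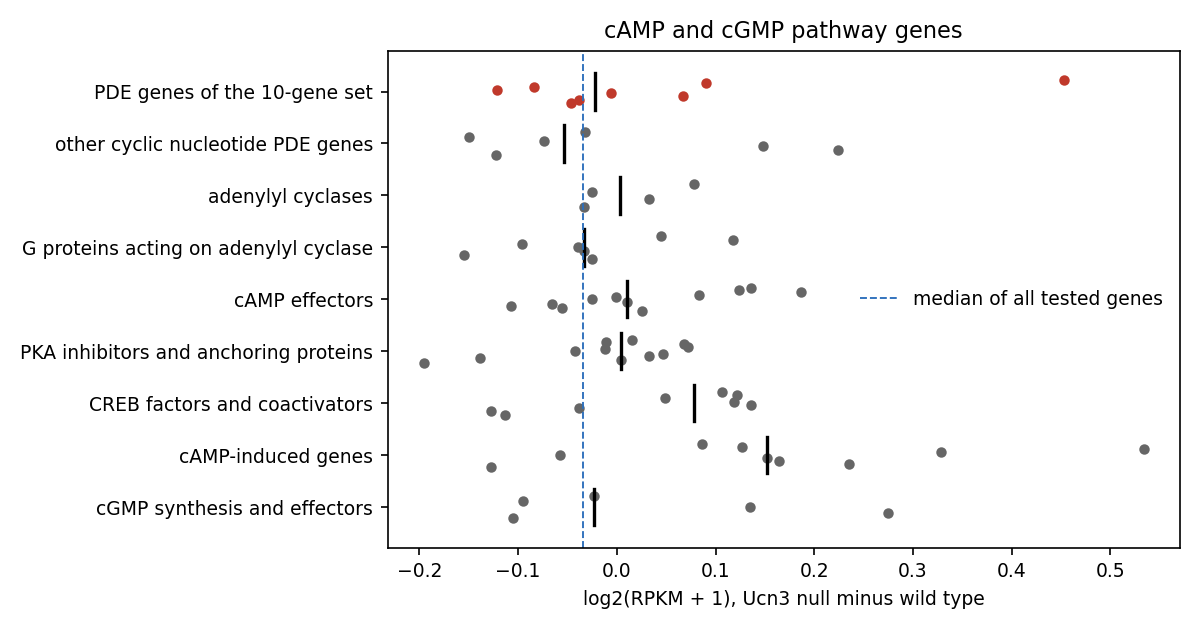
Log2(RPKM + 1) difference, null minus wild type, of each tested gene in 9 lists of the cAMP and cGMP pathways, with a black bar at each list's median and a dashed line at the median of all tested genes, -0.03. Crem is in 2 of the lists. Pde10a at 0.45 is the rightmost of the 8 tested members (red), whose median is -0.02.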

How the data were processed

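Per the labels' protocols, libraries of islet RNA were built with a TruSeq RNA kit. The authors deposited RPKM values, 1 row per RefSeq transcript. Per the submitters' processing notes STAR, bedtools and DESeq were used with the mouse build mm9. Roles, versions, use of strand and the rule for shared reads are not given in the sources used here. Of 28129 rows, 118 lacked a usable value. For each of 21813 symbols the transcript with the highest mean was kept, and the 12652 symbols averaging at least 1 RPKM were fitted as log2(RPKM + 1) with limma 3.58.1 in R 4.3.3, with genotype as covariate and a mean trend in eBayes. Log2 differences run null minus wild type and are too small for low genes because of the added 1. The fit was also run on simulated data with known changes, and the share of them that it recovered is not given here. Animals carry no shared replicate number, so no pairing was used, and replicates are numbered in the order of the labels.

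Reads per library were estimated from the steps between low RPKM values times transcript lengths from GENCODE M21, matched for 97.5% of rows. Between 73.4% and 74.7% of low values came out whole within 0.1 read, so read numbers are approximate, and error from them covers counting only. The reference build is not the authors' build, so it gave only lengths, chromosome numbers and RefSeq promoter sequences with their own coordinates.

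All 10 members were named, with every other phosphodiesterase gene and up to 3 genes of smallest p per pathway list. Members and lists were chosen with earlier results of these data known, so their counts are descriptions. Alternatives covered the pseudocount (0.1), the filter, 3 scalings, the trend, the mean over transcripts, an acinar covariate and each library left out.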

Additional observations from a re-analysis of the deposited data

How the results depend on the processing

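Under 14 alternative settings 0 of the members tested in each passed the adjusted threshold in either direction. Pde3a and Pde8b were tested only in the setting without the filter. Of 111 recomputed log2 differences of tested members, 99 kept their direction and 12 turned, all of them in members whose intervals span 0. With acinar markers left out before scaling, the values that turned were 0.015 for Pde1c, 0.028 for Pde3b and 0.056 for Pde4b. Median-ratio scaling gave 0.0065 for Pde3b and 0.035 for Pde4b, upper-quartile scaling 0.025 for Pde4b, and the acinar covariate 0.26 for Pde4b and -0.068 for Pde8a. With 1 library left out the differences ranged from -0.13 to 0.027 for Pde1c, from -0.0014 to 0.15 for Pde4a, turning without null replicate 3, and from -0.15 to 0.17 for Pde4b. Pde10a ranged from 0.35 to 0.61 in those fits and was 0.61 with a pseudocount of 0.1 RPKM. Pde4a averaged under 1 RPKM over its transcripts, so that setting gave it no value. Over all genes, 1 was called higher without the filter and 1 was called lower with the acinar covariate, against 0 higher and 2 lower. Leaving out 1 library gave 0 to 1 genes higher, with 1 without wild-type replicate 2 or 3, and 1 to 5 lower, with 5 without null replicate 1 and 1 without null replicate 2. The cause of these changes was not tested. No paired analysis was possible because the labels give animal numbers that no null and wild-type library share. Counting error at the lowest read number of a member was 1.43% to 8.22% of its value, lowest for Pde3b and highest for Pde8b.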

Other observations

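The genes that make and read cGMP, the second substrate of Pde1c and Pde10a and the inhibitor of the Pde3 enzymes, had 5 of 9 members tested and 0 called. Gucy2c, a membrane guanylyl cyclase that is the receptor of guanylin peptides, held 4.25, 7.66 and 8.77 RPKM in null islets, against 4.61, 5.17 and 6.25 RPKM in wild-type islets. The groups overlapped through null replicate 1 (limma adjusted p = 0.74). Npr1, a receptor of natriuretic peptides, stood at 5.09 ± 0.46 RPKM in null and 4.55 ± 0.55 RPKM in wild-type islets (SD, n = 3 each). Gucy1b3, a subunit of the nitric oxide receptor, stood at 1.85 ± 0.44 RPKM in null and 2.04 ± 0.15 RPKM in wild-type islets (SD, n = 3 each). Both overlapped between genotypes.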
